A study of Mus musculus with 9 samples.

Results

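The genes described are 40 of the 46517 genes in the table, those of the endoplasmic reticulum (ER) stress response and of the integrated stress response (ISR). They were chosen by gene symbol, with earlier results of these data known. They were followed in neutrophils of C57BL/6 mice, sorted from bone marrow, from blood and from tumors on day 27 after tumor cells were transplanted into the pancreas (OT mice). The tumor cells were a pancreatic ductal adenocarcinoma (PDAC) line from KPC mice, and every mouse carried such a tumor, so no tumor-free group was compared. Each compartment had 3 libraries, each from a pool of 5 mice and a separate experiment. The paper describes the compartments as taken from the same mice, and the main tests below do not pair them. The cells were sorted as Dapi-, CD45+, negative for CD3, B220 and NK1.1, Ly6G+ and Ly6C+, with the bone marrow cells labelled Ly6G.hi and the others Ly6G+. All values are the log2 FPKM values the authors deposited (log2 of fragments scaled to gene length and to library size), unless reads are named.

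The ER folds secreted and membrane proteins with chaperones such as BiP (Hspa5) and with protein disulfide isomerases. When unfolded proteins build up, the sensors IRE1 (Ern1), PERK (Eif2ak3) and ATF6 (Atf6) start the unfolded protein response (UPR), in which XBP1 and cleaved ATF6 raise the folding and degradation machinery. PERK also belongs to the ISR, in which kinases phosphorylate the translation factor eIF2α, general translation falls and ATF4 and CHOP (Ddit3) turn on their target genes. Immature neutrophils in the bone marrow make large amounts of granule protein, and synthesis of these proteins falls as the cells mature.

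Of the 40 genes, 33 passed the filter, which asked for log2 FPKM values over 0 in 3 or more libraries. Of these 33, 27 were over 0 in all 9 libraries, and each was over 0 in 2 or 3 compartments. Phgdh passed only with its tumor libraries counted, being over 0 in 5 libraries, fewer than 3 of them outside tumor. It remains in the counts of higher genes below. The 7 genes that failed were Psat1, Vldlr, Eif2ak3, Eif2ak4, Ern1, Atf6 and Manf. For most genes the deposited values divide by the whole genomic span, introns included, which lowers the FPKM of genes with long introns. For these 7 the reads are given, with limma-voom on reads recovered from the FPKM values. Every compartment contrast below was tested over all 7794 genes that passed the filter with limma, in 1 model whose contrasts share libraries, and calls were made at a Benjamini-Hochberg adjusted p of 0.05.

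The libraries held between 4580807 and 7949367 reads, and none stood apart from its compartment, with correlations of 0.875 to 0.933 within and 0.415 to 0.793 between compartments. All 10 neutrophil markers were read in every compartment, at a sum of 11027 to 13009 RPM (reads on the list scaled to all reads of the library) in tumor, 33390 to 34159 in blood and 50992 to 51950 in bone marrow. The 8 markers of early neutrophils, such as Mpo and Elane, summed to 1968 to 3417 RPM in tumor, 542 to 1819 in blood and 10571 to 15448 in bone marrow. Genes of some, but not all, cell types that the sort should remove were higher in the tumor libraries. The 10 epithelial markers, Epcam and keratins among them, summed to 2926 to 6259 RPM in tumor and to no more than 141 in the others. The 10 acinar markers, the digestive enzymes of the exocrine pancreas, summed to 857 to 3596 RPM in tumor and to at most 8.93 elsewhere, with no read of Amy2a5 in bone marrow or blood. The 10 fibroblast markers summed to 1728 to 2150 RPM in tumor against 67.9 to 163 elsewhere, and Postn had no reads in bone marrow or blood. B and plasma cell markers reached 208 to 358 RPM in tumor, with Tnfrsf17 at 0, and at most 128 elsewhere. Acinar and plasma cells are rich in ER folding proteins, and the part of any of these cells in the tumor values below was not tested. In such bulk samples, fewer cells of a type and less RNA per cell cannot be told apart.

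**Figure D1:**
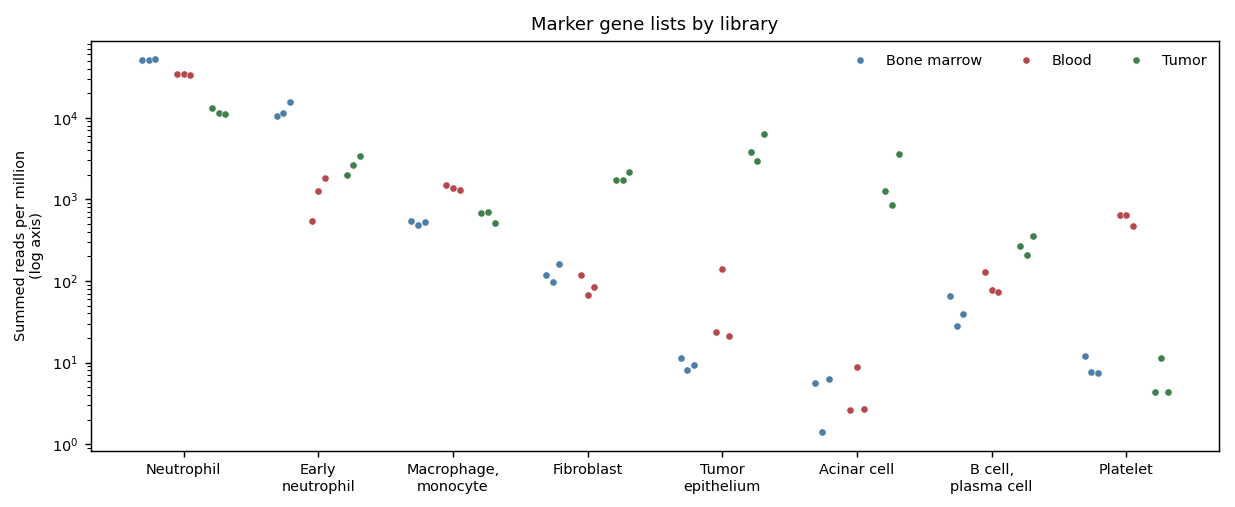
Summed RPM (log axis) of 8 lists of cell type markers, 1 point per library, for bone marrow, blood and tumor. The epithelial, acinar and fibroblast lists were higher in all 3 tumor libraries than in any other library, while the neutrophil list fell from 50992 or more in bone marrow to 13009 or less in tumor.

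In tumor against blood, 17 of the 33 genes tested were higher and 10 were lower, beside 28.1% and 34.5% of all genes tested. Against bone marrow, 15 were higher in tumor and 8 lower, beside 22.4% and 32.9% of all genes. Blood against bone marrow went the other way, with 7 higher and 14 lower, beside 20.6% and 23.6%. The higher genes in tumor were mostly those of the folding machinery, whereas genes of ER-associated degradation were not among them and ISR genes went in both directions. The tumor values were scaled down by the authors' library factors (1.15 ± 0.069 in tumor and 0.840 ± 0.043 in bone marrow, SD, n = 3). With plain library totals the median of all genes rose by 0.42 against either compartment (log2). The counts became 22 higher and 6 lower against blood and 18 and 4 against bone marrow. Those over all 7794 genes moved as well, from 2194 higher and 2686 lower against blood to 2892 and 1916. Against bone marrow they moved from 1745 and 2566 to 2580 and 1654. The count of 8 lower than in bone marrow was 5 when blood replicate 2, bone marrow replicate 1 or 2, or tumor replicate 1 or 3 was left out.

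**Figure D2:**
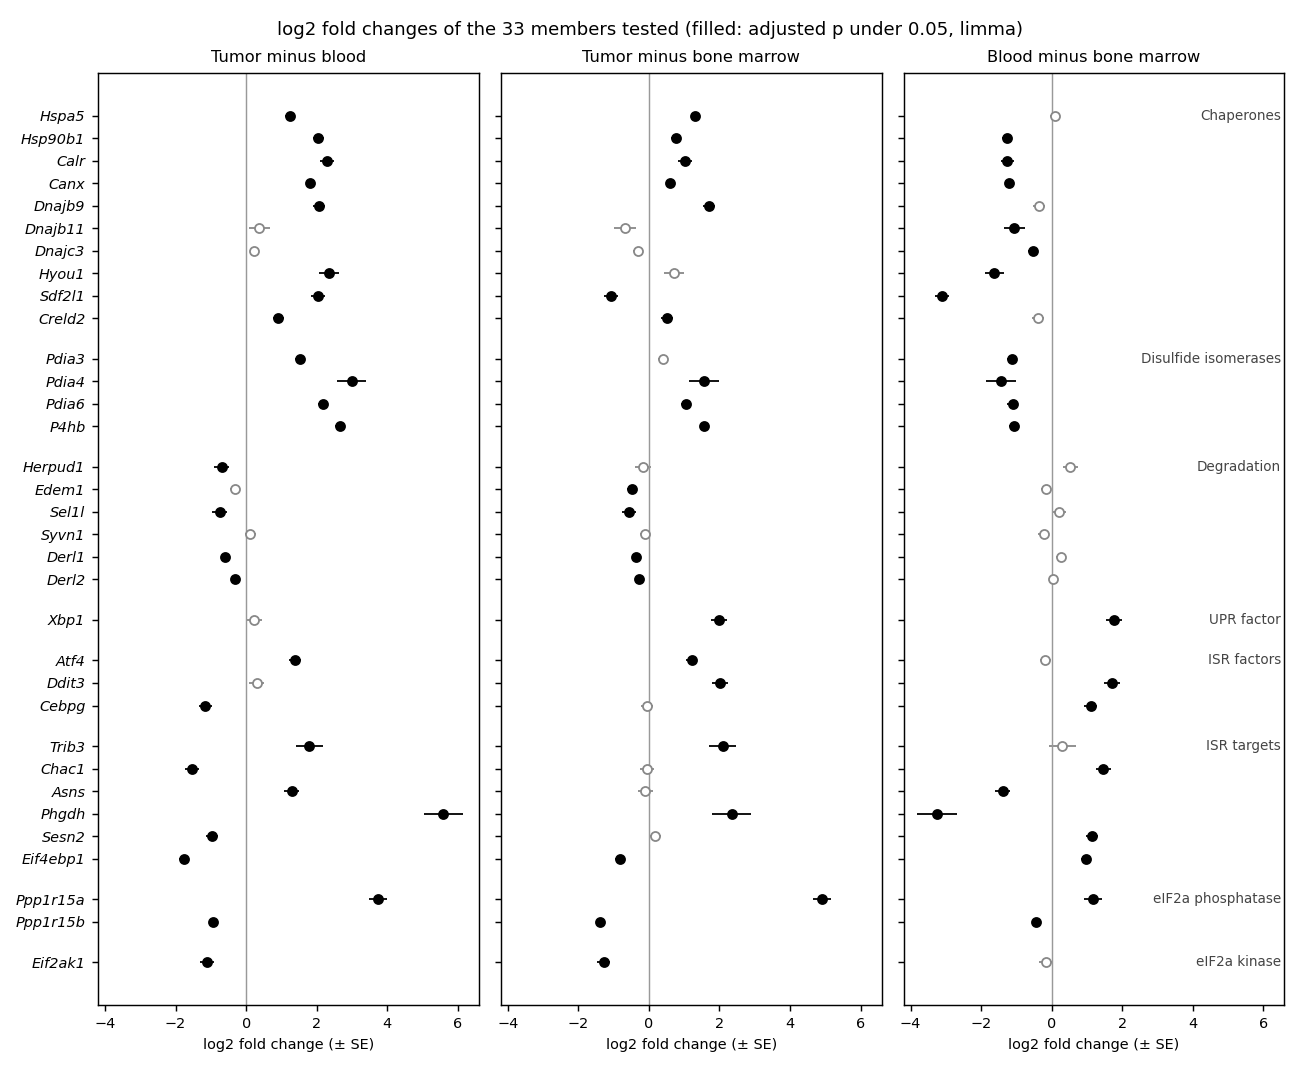
log2 fold changes (points) with their standard errors (bars) of the 33 genes tested, in tumor minus blood, tumor minus bone marrow and blood minus bone marrow, grouped by role. Filled points passed an adjusted p of 0.05 in limma, which holds for 12 of 14 folding genes in tumor minus blood, all to the right of 0.

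Most ER chaperone and disulfide isomerase genes were higher in tumor than in either other compartment and lower in blood than in bone marrow. Of the 10 chaperone genes tested, 8 were higher in tumor than in blood, 0 were lower and 2 did not pass, beside 28.1% of all genes higher and 34.5% lower. All 4 disulfide isomerase genes were also higher. The median log2 fold change of the 14 folding genes was 2.03, beside -0.17 for all genes tested. Against bone marrow 9 of the 14 were higher and 1 was lower (beside 22.4% and 32.9% of all genes), with a median of 0.75 beside -0.21. Blood was below bone marrow in 11 of the 14 and above it in none (beside 23.6% and 20.6% of all genes), with a median of -1.12 beside -0.04.

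Hspa5, the ER form of the 70-kDa heat shock protein and the main sensor-binding chaperone, had log2 FPKM values of 6.33, 6.37 and 6.71 in bone marrow, 6.49, 6.61 and 6.56 in blood and 7.66, 7.98 and 7.73 in tumor. The tumor libraries lay above all others, and blood and bone marrow overlapped. Hspa5 was 2.35-fold higher in tumor than in blood (log2 fold change 1.23 ± 0.13 (SE), adjusted p = 0.000101) and 2.49-fold higher than in bone marrow (log2 fold change 1.32 ± 0.13 (SE), adjusted p = 9.03e-05). Blood against bone marrow did not pass, at a log2 difference of 0.084 ± 0.13 (SE, adjusted p = 0.637), nor did it for Dnajb9 and Creld2.

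Hsp90b1, the ER form of HSP90, had 3.68, 3.68 and 4.03 in bone marrow, 2.73, 2.60 and 2.25 in blood and 4.57, 4.49 and 4.65 in tumor. The 3 compartments did not overlap, with tumor on top and blood at the bottom. Calr, the lectin chaperone calreticulin, had 4.50, 3.83 and 4.44 in bone marrow, 3.18, 2.88 and 2.93 in blood and 5.20, 5.17 and 5.48 in tumor. Canx, its membrane-bound partner calnexin, had 2.74, 2.62 and 2.88 in bone marrow, 1.55, 1.41 and 1.63 in blood and 3.32, 3.45 and 3.25 in tumor. Both kept that order, and against blood Calr rose 4.87-fold (log2 fold change 2.28 ± 0.19 (SE), adjusted p = 3.28e-05) and Canx 3.5-fold (log2 fold change 1.81 ± 0.11 (SE), adjusted p = 7.75e-06). Against bone marrow the rise was smaller, 0.77 for Hsp90b1, 1.03 for Calr and 0.59 for Canx on the log2 scale, with adjusted p of 0.003, 0.00248 and 0.00233.

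Dnajb9 encodes ERdj4, a co-chaperone of BiP and a textbook target of XBP1. Its values were 4.01, 4.17 and 3.84 in bone marrow, 3.78, 3.35 and 3.82 in blood and 5.72, 5.94 and 5.49 in tumor. It was about equally far above both other compartments, by 2.06 ± 0.17 and 1.71 ± 0.17 (log2, SE, adjusted p = 2.87e-05 and 9e-05). Creld2, a secreted ER stress protein, had 1.98, 2.29 and 1.96 in bone marrow, 1.82, 1.64 and 1.59 in blood and 2.44, 2.43 and 2.91 in tumor. It rose by less, 0.91 ± 0.17 against blood and 0.52 ± 0.17 against bone marrow (SE, adjusted p = 0.00181 and 0.03). The second call was lost without bone marrow replicate 1, bone marrow replicate 3 or tumor replicate 3 (adjusted p = 0.0916, 0.0904 and 0.0707), with no filter (0.113) and with only bone marrow and tumor in the model (0.0578), and the cause was not tested.

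The isomerases, which form and reshuffle disulfide bonds, included the genes with the largest differences from blood among the 14 folding genes tested, Pdia4 and P4hb. P4hb, which encodes PDI itself, had 4.95, 4.83 and 5.15 in bone marrow, 3.83, 4.09 and 3.77 in blood and 6.39, 6.71 and 6.55 in tumor. The tumor libraries lay above all others, and P4hb was 6.3-fold above blood (log2 fold change 2.65 ± 0.13 (SE), adjusted p = 4e-06) and 2.98-fold above bone marrow (log2 fold change 1.57 ± 0.13 (SE), adjusted p = 3.8e-05). Pdia4 had 1.47, 0.77 and 1.62 in bone marrow, 0.59, 0.053 and -1.09 in blood and 2.69, 2.78 and 3.06 in tumor, with blood spread over more than 1 log2 unit. Its differences were 2.99 ± 0.42 against blood and 1.55 ± 0.42 against bone marrow (SE, adjusted p = 0.000472 and 0.0148), and the latter reached an adjusted p of 0.0531 without bone marrow replicate 2. Pdia6 had 2.54, 2.28 and 2.59 in bone marrow, 1.59, 1.21 and 1.27 in blood and 3.40, 3.48 and 3.69 in tumor, with differences of 2.17 ± 0.14 and 1.06 ± 0.14 (SE, adjusted p = 1.18e-05 and 0.000492). Pdia3, which works with the lectin chaperones, was 2.88-fold above blood, but its difference from bone marrow did not pass (log2 fold change 0.40 ± 0.15 (SE), adjusted p = 0.0527), although it did by limma-voom and with plain library totals (adjusted p = 0.0256 and 0.00469).

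**Figure D3:**
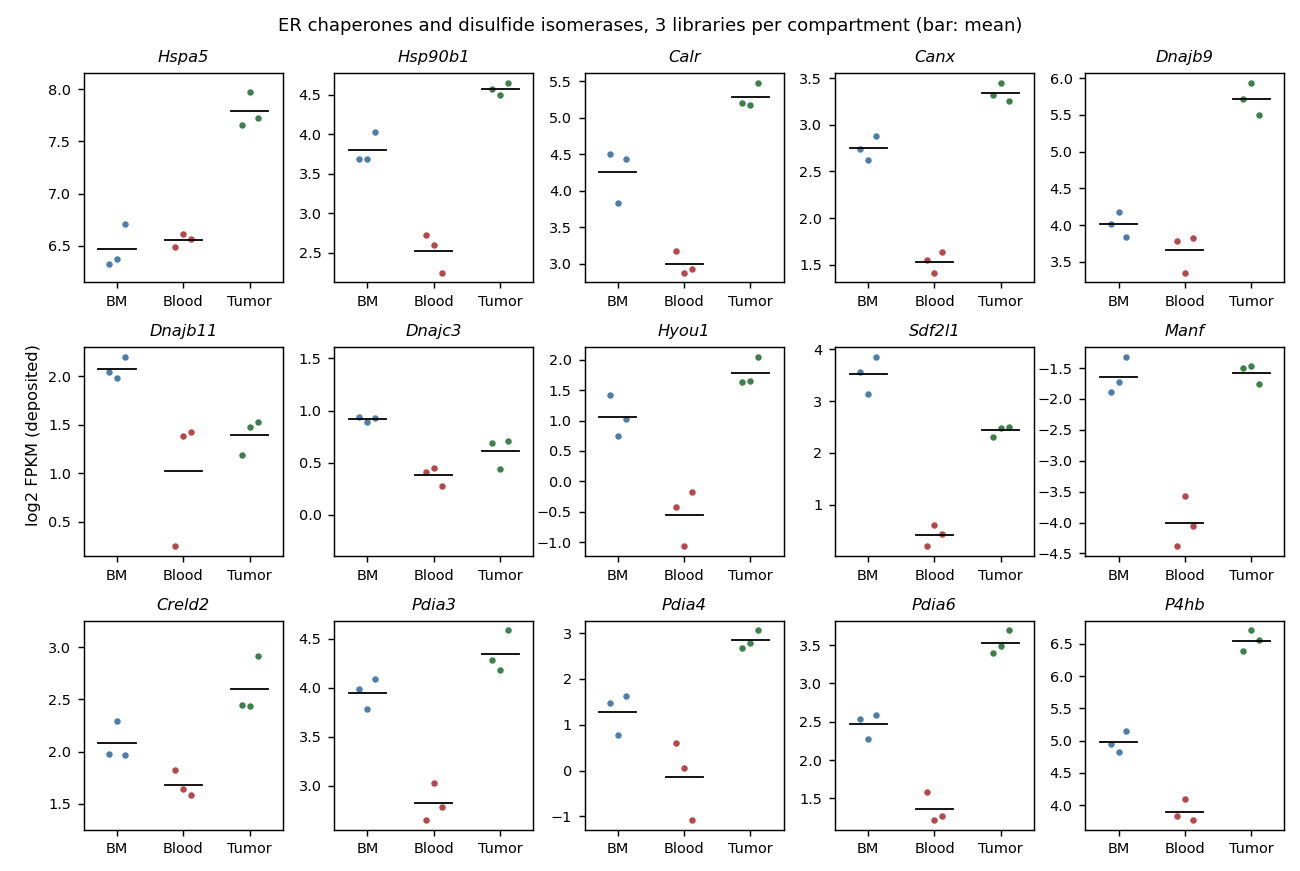
log2 FPKM of the 15 chaperone and disulfide isomerase genes in each of the 9 libraries, with a bar at the mean of each compartment and a separate scale for each gene. Tumor libraries are the highest for Hspa5 and P4hb (6.39 to 6.71), and blood has the lowest mean for every gene except Hspa5.

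Not every folding gene was highest in tumor. Sdf2l1, a partner of ERdj3 in the BiP complex, was lower in tumor than in bone marrow (log2 fold change -1.08 ± 0.20 (SE), adjusted p = 0.00225) although higher than in blood (log2 fold change 2.02 ± 0.20 (SE), adjusted p = 7.06e-05), and it was 8.6-fold lower in blood than in bone marrow. Dnajb11, which encodes ERdj3, differed from blood by 0.38 ± 0.31 and from bone marrow by -0.68 ± 0.31 (SE, adjusted p = 0.314 and 0.0941). Dnajc3, a further co-chaperone of BiP, differed by 0.23 ± 0.14 and -0.31 ± 0.14 (SE, adjusted p = 0.18 and 0.0993). With plain library totals Dnajb11 and Dnajc3 were called higher in tumor than in blood, as were all 14 folding genes tested. In that setting 2892 of all 7794 genes were higher. Hyou1, the nucleotide exchange factor of BiP, was 5.07-fold above blood and 0.72 above bone marrow on the log2 scale, which did not pass (adjusted p = 0.0606) but did by limma-voom and with plain library totals (0.0157 and 0.0136). Manf, a secreted ER stress protein that failed the filter, had 97, 92 and 143 in bone marrow, 10, 25 and 15 in blood and 118, 146 and 126 in tumor reads. By limma-voom Manf was higher in tumor than in blood (log2 fold change 2.36 ± 0.39 (SE), adjusted p = 0.00018) and did not pass against bone marrow (log2 fold change 0.056 ± 0.23 (SE), adjusted p = 0.856), where 33.1% and 29.3% of the 17714 genes tested in that way were higher. The falls of Dnajb11, Dnajc3 and Pdia4 in blood against bone marrow (adjusted p = 0.0249, 0.0161 and 0.0264) were each lost when certain libraries were left out. These were bone marrow replicates 1, 2 and 3 for Dnajb11 (adjusted p = 0.0613, 0.0538 and 0.0766), blood replicate 3 and bone marrow replicate 1 for Dnajc3 (0.0521 and 0.0529), and blood replicate 2 and bone marrow replicates 1 and 3 for Pdia4 (0.0502, 0.0777 and 0.0868).

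The promoters of folding genes are known for the ER stress response element (ERSE), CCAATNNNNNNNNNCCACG, which ATF6 and XBP1 can bind together with NF-Y. RefSeq windows of 300 bases around transcript starts (GRCm38.p6) were matched for 34 of the 40 genes and searched on both strands. The element was found in 7 of 13 folding genes matched, Hspa5, Hsp90b1, Calr, Canx, Dnajc3, Creld2 and Pdia6, in Syvn1 of the degradation genes, and in none of the 14 ISR genes matched, beside 0.137% of the 27025 genes with such a window. The related ERSE-II, ATTGGNCCACG, shares the CCACG letters and was found in Dnajb11 and Herpud1, beside 0.0444% of genes. TGACGTGG, the core of a further XBP1 and ATF6 element, which overlaps the reverse of CCACG, was in none of the genes, beside 0.714%. The stretches below are each 5′ to 3′ on the strand of the gene, with the element in capitals. They are from folding genes that rose in tumor against both compartments (Hspa5, Calr, Canx, Pdia6), from Dnajc3, which did not pass in the main test, and from Syvn1.
Hspa5, chr2:34772020-34772048 (+ strand): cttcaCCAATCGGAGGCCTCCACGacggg
Calr, chr8:84847070-84847098 (- strand): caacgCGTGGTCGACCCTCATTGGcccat
Canx, chr11:50325795-50325823 (- strand): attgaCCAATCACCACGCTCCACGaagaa
Pdia6, chr12:17266486-17266514 (+ strand): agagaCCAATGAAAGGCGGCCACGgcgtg
Dnajc3, chr14:118937822-118937850 (+ strand): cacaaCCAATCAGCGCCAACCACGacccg
Syvn1, chr19:6046527-6046555 (+ strand): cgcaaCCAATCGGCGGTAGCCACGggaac
The element began 65 bases before the RefSeq start in Hspa5, 162 in Calr, 145 in Canx, 98 in Pdia6, 105 in Dnajc3 and 44 in Syvn1. In Calr it reads on the opposite strand. The Hspa5 stretch overlaps the gene as annotated in GENCODE M21, which begins further upstream, and the others lie before it. Dnajc3 and Syvn1 match the same element as genes that rose by more than 1 log2 unit against blood.

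The 6 genes of ER-associated degradation move misfolded proteins back to the cytosol. Of these, 0 were higher and 4 lower in tumor than in blood, beside 28.1% and 34.5% of all genes. The median log2 fold change was -0.46 beside -0.17. Against bone marrow 0 were higher and 4 lower, beside 22.4% and 32.9%, with a median of -0.32 beside -0.21. Between blood and bone marrow 0 of the 6 passed at an adjusted p of 0.05 in limma, beside 20.6% of all genes higher and 23.6% lower. Sel1l, the adaptor of the HRD1 ligase, had 1.17, 1.74 and 1.50 in bone marrow, 1.75, 1.72 and 1.55 in blood and 0.94, 0.60 and 1.21 in tumor. Derl1, a channel component, had 3.26, 3.26 and 3.13 in bone marrow, 3.65, 3.47 and 3.29 in blood and 2.74, 3.03 and 2.82 in tumor. Derl2, its paralog, had 2.39, 2.38 and 2.21 in bone marrow, 2.45, 2.36 and 2.28 in blood and 1.97, 2.15 and 2.01 in tumor. The tumor libraries were the lowest of each gene except that Sel1l overlapped bone marrow, with differences from blood of -0.76 ± 0.20, -0.61 ± 0.12 and -0.32 ± 0.10 (SE, adjusted p = 0.0122, 0.00276 and 0.0261). Herpud1, which organizes the complex at the membrane, was 1.62-fold lower in tumor than in blood (adjusted p = 0.022). Edem1, a mannosidase-like lectin, was 1.39-fold lower in tumor than in bone marrow (adjusted p = 0.0185). Syvn1, the HRD1 ligase, passed in no comparison, at 0.12 ± 0.15 against blood.

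These small falls depended on the scaling. With plain library totals none of the 6 was lower than in either compartment, beside 1916 of all 7794 genes against blood and 1654 against bone marrow. Syvn1 was then higher than in blood. Derl1 and Derl2 turned to 0.098 and 0.17 above bone marrow and Derl2 to 0.13 above blood. Leaving out 1 library also ended several calls. Against bone marrow, Sel1l kept its call only without bone marrow replicate 1 or tumor replicate 3, and reached an adjusted p of 0.152 without bone marrow replicate 2. Derl2 kept it only without bone marrow replicate 3 or tumor replicate 2, and Derl1 only without blood replicate 1 or 3 or tumor replicate 2, with adjusted p up to 0.132 and 0.109. Edem1 lost its call against bone marrow without bone marrow replicate 1 or tumor replicate 3 (adjusted p = 0.0683 and 0.0511). Against blood, Derl2 lost its call without blood replicate 1 or 2 or tumor replicate 1 or 3 (adjusted p up to 0.0815), and Herpud1 without blood replicate 2 or 3 or tumor replicate 1 (up to 0.0712). A difference within a library does not depend on the scaling. The mean log2 FPKM of the 14 folding genes tested minus that of the 6 degradation genes, an alternative chosen after seeing the data, was 0.54, 0.21 and 0.66 in bone marrow, -0.72, -0.77 and -0.74 in blood and 1.40, 1.50 and 1.44 in tumor. The 3 compartments did not overlap in it. For the single pair Hspa5 minus Herpud1 it was 2.20, 2.26 and 2.57 in bone marrow, 2.08, 1.80 and 1.83 in blood and 3.72, 4.46 and 3.31 in tumor.

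The factor and the sensors of the UPR followed a different order from the chaperones. Xbp1, whose spliced mRNA encodes the active factor, had 5.92, 5.94 and 5.79 in bone marrow, 7.14, 7.98 and 7.83 in blood and 7.86, 8.14 and 7.62 in tumor. Blood and tumor overlapped, and both were clear of bone marrow. Xbp1 was 3.4-fold higher in blood than in bone marrow (log2 fold change 1.77 ± 0.23 (SE), adjusted p = 0.000621) and 3.97-fold higher in tumor (log2 fold change 1.99 ± 0.23 (SE), adjusted p = 0.000187), and tumor and blood did not pass (log2 fold change 0.22 ± 0.23 (SE), adjusted p = 0.421). This depended on the scaling, since with plain library totals Xbp1 was called higher in tumor than in blood (log2 fold change 0.67). The table counts the whole gene and cannot separate spliced from unspliced Xbp1. In blood, then, Xbp1 was higher than in bone marrow while 11 of the 14 folding genes were lower, and Hspa5 minus Xbp1 within a library was 0.41, 0.43 and 0.92 in bone marrow, -0.65, -1.37 and -1.27 in blood and -0.20, -0.16 and 0.10 in tumor.

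The 3 sensors failed the filter. Ern1, which encodes IRE1α, the kinase and nuclease that splices Xbp1, had 106, 104 and 124 in bone marrow, 175, 156 and 167 in blood and 138, 180 and 138 in tumor reads. Atf6, the membrane-bound factor that is cut in the Golgi, had 266, 303 and 405 in bone marrow, 343, 530 and 415 in blood and 467, 759 and 555 in tumor reads. Eif2ak3, which encodes PERK, had 239, 200 and 202 in bone marrow, 202, 415 and 396 in blood and 95, 183 and 202 in tumor reads. In log2 FPKM, which allows for library size, Ern1 was -2.55, -2.34 and -2.32 in bone marrow, -1.07, -1.74 and -1.39 in blood and -2.06, -1.97 and -2.42 in tumor. Atf6 was -2.03, -1.61 and -1.42 in bone marrow, -0.91, -0.78 and -0.88 in blood and -1.12, -0.70 and -1.22 in tumor. Eif2ak3 was -0.76, -0.78 and -1.0 in bone marrow, -0.25, 0.29 and 0.48 in blood and -1.98, -1.33 and -1.25 in tumor. All 3 were higher in blood than in bone marrow without overlap, by 0.98 ± 0.24, 0.84 ± 0.20 and 1.04 ± 0.23 in limma-voom (log2, SE, adjusted p = 0.00665, 0.00591 and 0.00336), where 13.8% of all genes were higher and 16.4% lower. In tumor Ern1 and Eif2ak3 were below blood, by -0.74 ± 0.23 and -1.69 ± 0.24 (SE, adjusted p = 0.0134 and 5.29e-05), beside 21.9% of all genes lower. Atf6 did not pass against blood (log2 fold change -0.16 ± 0.19 (SE), adjusted p = 0.501) and was above bone marrow (log2 fold change 0.68 ± 0.19 (SE), adjusted p = 0.00963).

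The eIF2α kinases did not move together. Eif2ak1, which encodes the heme-regulated kinase HRI, had log2 FPKM values of 0.46, 0.55 and 0.41 in bone marrow, 0.16, 0.31 and 0.43 in blood and -0.97, -0.54 and -0.93 in tumor. It was 2.16-fold lower in tumor than in blood (log2 fold change -1.11 ± 0.19 (SE), adjusted p = 0.00123) and 2.44-fold lower than in bone marrow (log2 fold change -1.29 ± 0.19 (SE), adjusted p = 0.000717). Eif2ak3 was also lower in tumor than in bone marrow (log2 fold change -0.65 ± 0.25 (SE), adjusted p = 0.0462 in limma-voom, beside 21.0% of all genes lower). Eif2ak4, which encodes GCN2, the sensor of amino acid shortage, had 31, 25 and 43 in bone marrow, 21, 16 and 20 in blood and 90, 198 and 166 in tumor reads. It rose in tumor, against blood (log2 fold change 2.34 ± 0.41 (SE), adjusted p = 0.000284) and against bone marrow (log2 fold change 1.96 ± 0.35 (SE), adjusted p = 0.00034), and its log2 FPKM values in tumor, -2.57, -1.72 and -2.05, were clear of the others, of which the highest was -3.73.

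The subunits that lead phosphatase to eIF2α went in opposite directions. Ppp1r15a encodes GADD34, the stress-induced subunit that ends the ISR, and had 3.32, 3.31 and 3.13 in bone marrow, 4.93, 3.91 and 4.44 in blood and 8.08, 8.52 and 7.88 in tumor. It was 13.3-fold higher in tumor than in blood (log2 fold change 3.73 ± 0.26 (SE), adjusted p = 1.48e-05) and 30-fold higher than in bone marrow (log2 fold change 4.91 ± 0.26 (SE), adjusted p = 5.12e-06), the largest rise over bone marrow of the 33 genes tested. Ppp1r15b encodes CReP, the constitutive subunit, and had 5.64, 5.86 and 5.80 in bone marrow, 5.18, 5.40 and 5.39 in blood and 4.45, 4.49 and 4.20 in tumor. It was 1.93-fold lower in tumor than in blood (log2 fold change -0.95 ± 0.11 (SE), adjusted p = 0.000188) and 2.62-fold lower than in bone marrow (log2 fold change -1.39 ± 0.11 (SE), adjusted p = 3.19e-05). Its fall from bone marrow to blood (adjusted p = 0.0141) had an adjusted p of 0.0507 without bone marrow replicate 2. Ppp1r15a minus Ppp1r15b within a library was -2.32, -2.55 and -2.67 in bone marrow, -0.25, -1.49 and -0.95 in blood and 3.63, 4.03 and 3.68 in tumor. The subunits thus changed places in tumor, in a difference that no scaling of the libraries can move.

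**Figure D4:**
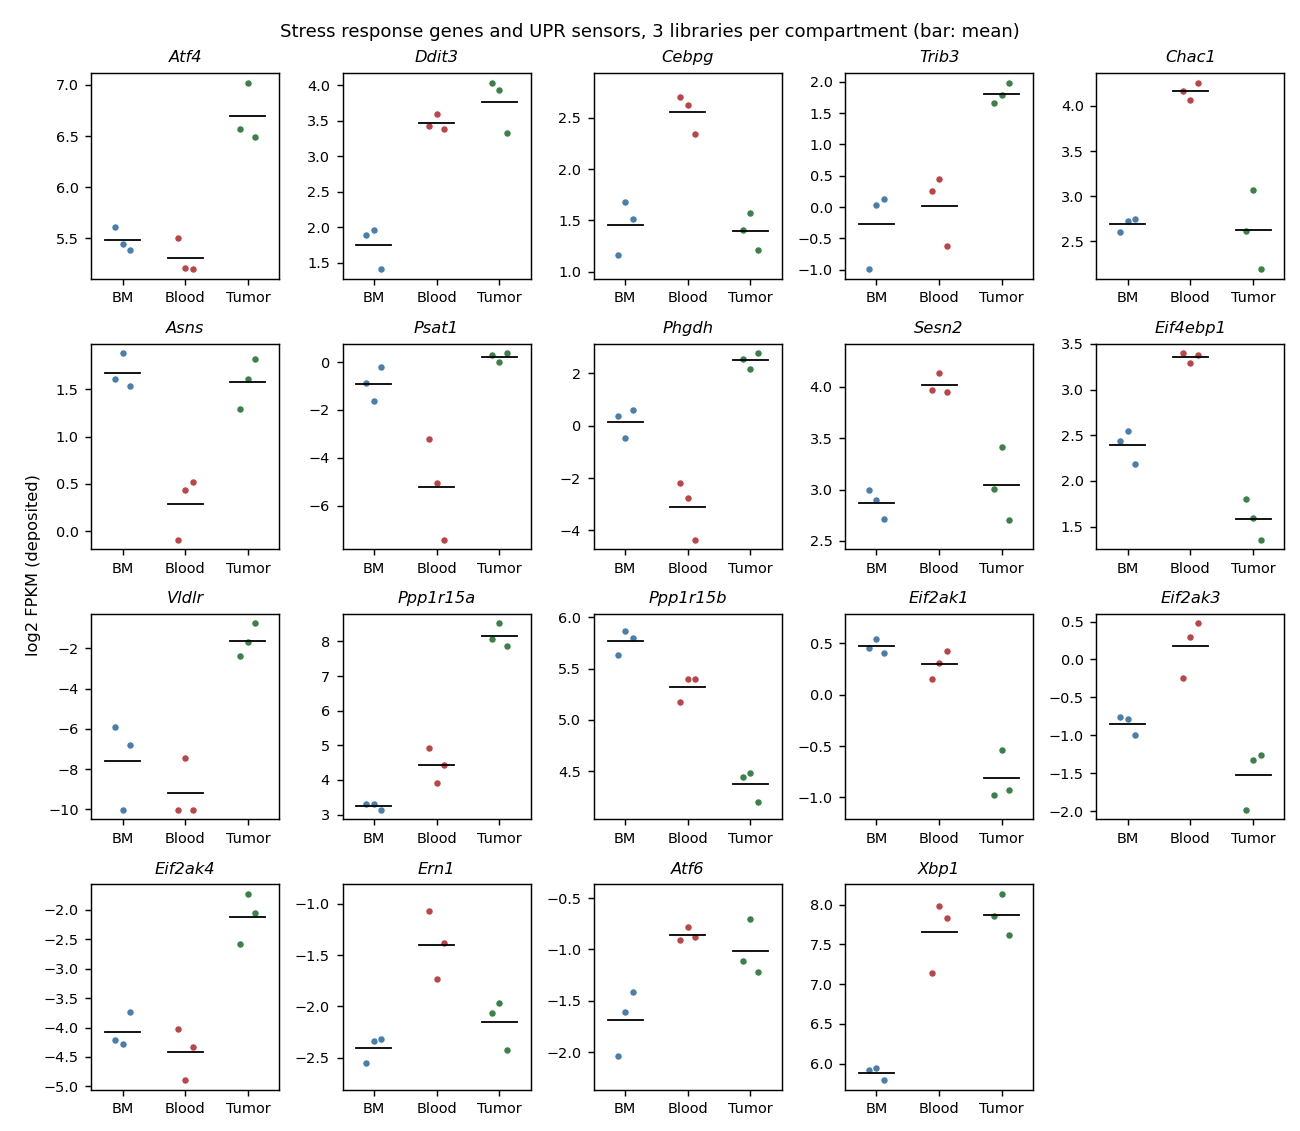
log2 FPKM of the 16 ISR genes, PERK among them, and of Ern1, Atf6 and Xbp1, 1 point per library with a bar at the compartment mean and a separate scale for each gene. Ppp1r15a lies at 7.88 to 8.52 in tumor and at no more than 4.93 elsewhere, while Chac1 and Sesn2 are highest in all 3 blood libraries.

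Among the factors of the ISR, Atf4 had 5.61, 5.45 and 5.38 in bone marrow, 5.51, 5.21 and 5.20 in blood and 6.56, 7.02 and 6.49 in tumor. The tumor libraries were above all others, and blood and bone marrow overlapped. Atf4 was 2.61-fold above blood (log2 fold change 1.39 ± 0.16 (SE), adjusted p = 0.000164) and 2.31-fold above bone marrow (log2 fold change 1.21 ± 0.16 (SE), adjusted p = 0.000404). Ddit3, which encodes CHOP, had 1.90, 1.96 and 1.41 in bone marrow, 3.43, 3.60 and 3.38 in blood and 4.04, 3.94 and 3.33 in tumor. Like Xbp1 it was higher than bone marrow in blood (log2 fold change 1.72 ± 0.22 (SE), adjusted p = 0.000622) and in tumor (log2 fold change 2.01 ± 0.22 (SE), adjusted p = 0.000154), and tumor and blood overlapped (log2 fold change 0.30 ± 0.22 (SE), adjusted p = 0.267). With plain library totals Ddit3 too was called higher in tumor than in blood (log2 fold change 0.75, adjusted p = 0.00756 in limma). Cebpg, the dimer partner of ATF4, was highest in blood, 2.15-fold above bone marrow and 2.23-fold above tumor (adjusted p = 0.00175 and 0.000681). mRNA levels do not show the translation of Atf4, through which the ISR is known to act.

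The 8 target genes of ATF4 and CHOP fell into separate patterns. Of the 6 tested, 3 were higher and 3 lower in tumor than in blood, beside 28.1% and 34.5% of all genes. The median was 0.16 beside -0.17 for all genes. Against bone marrow 2 were higher and 1 lower, beside 22.4% and 32.9% of all genes, with a median of 0.05 beside -0.21. Phgdh, tested only because of its tumor values, is among the higher genes in both. Trib3, a pseudokinase that curbs AKT and CHOP, had -0.99, 0.031 and 0.14 in bone marrow, 0.25, 0.44 and -0.62 in blood and 1.67, 1.78 and 1.99 in tumor. It was 3.45-fold above blood (log2 fold change 1.79 ± 0.38 (SE), adjusted p = 0.00377) and 4.25-fold above bone marrow (log2 fold change 2.09 ± 0.38 (SE), adjusted p = 0.00212), with overlap between the other compartments. Vldlr, the very low density lipoprotein receptor, had 4, 0 and 2 in bone marrow, 0, 1 and 0 in blood and 44, 87 and 176 in tumor reads. Its 307 reads in tumor stood against 6 in bone marrow, a ratio per library size of 44.7 (95% exact counting interval 20.3 to 123), and against 1 read in blood, a ratio of 201 (35.8 to 7970), intervals that cover counting error only.

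The genes of serine and asparagine synthesis were lowest in blood. Phgdh, the first enzyme of serine synthesis, had 0.37, -0.49 and 0.57 in bone marrow, -2.20, -2.75 and -4.35 in blood and 2.55, 2.17 and 2.77 in tumor. The compartments did not overlap. Phgdh was 48.3-fold higher in tumor than in blood (log2 fold change 5.59 ± 0.56 (SE)) and 5.08-fold higher than in bone marrow (log2 fold change 2.34 ± 0.56 (SE)). In reads, it had 231, 108 and 265 in bone marrow, 23, 22 and 6 in blood and 976, 910 and 1450 in tumor. With so few reads in blood the size of the fold over blood was uncertain. It was 31.3 without blood replicate 3, 25.2 with a pseudocount of 0.1 FPKM and 5.85 with a pseudocount of 1. No limma p-value on the filtered values is given, because Phgdh passed that filter only with its tumor libraries counted. The filter of limma-voom asks for 5 reads in any library, which the bone marrow libraries met alone. By limma-voom Phgdh differed by 5.57 ± 0.59 from blood and 2.32 ± 0.26 from bone marrow (log2, SE, adjusted p = 3.52e-06 and 6.81e-06). With no filter the limma difference from bone marrow did not pass (adjusted p = 0.0529). Psat1, the next enzyme, had 155, 79 and 246 in bone marrow, 18, 7 and 1 in blood and 321, 320 and 441 in tumor reads and in log2 FPKM -0.88, -1.61 and -0.20 in bone marrow, -3.22, -5.05 and -7.42 in blood and 0.28, -0.010 and 0.38 in tumor. By limma-voom Psat1 rose in tumor against blood (log2 fold change 5.34 ± 0.81 (SE), adjusted p = 8e-05) and against bone marrow (log2 fold change 1.08 ± 0.32 (SE), adjusted p = 0.0105). Asns, asparagine synthetase, was 2.62-fold lower in blood than in bone marrow (log2 fold change -1.39 ± 0.22 (SE), adjusted p = 0.0016) and at nearly the same level in tumor and bone marrow (-0.10 ± 0.22, SE, adjusted p = 0.716).

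A further set was highest in blood. Chac1, which degrades glutathione, was 2.77-fold higher in blood than in bone marrow (log2 fold change 1.47 ± 0.20 (SE), adjusted p = 0.000823) and 2.9-fold lower in tumor than in blood (log2 fold change -1.54 ± 0.20 (SE), adjusted p = 0.000305). Its mean log2 FPKM was 4.16 ± 0.099 in blood, against 2.69 ± 0.076 in bone marrow and 2.62 ± 0.44 in tumor (SD, n = 3). Sesn2, an inhibitor of mTORC1 upon leucine shortage, had 4.02 ± 0.10 in blood, 2.87 ± 0.14 in bone marrow and 3.04 ± 0.35 in tumor (SD, n = 3). Tumor against bone marrow did not pass for either, at -0.068 ± 0.20 for Chac1 and 0.17 ± 0.18 for Sesn2 (log2, SE, adjusted p = 0.796 and 0.442). With plain library totals Sesn2 was called higher in tumor than in bone marrow (log2 fold change 0.62, adjusted p = 0.00634 in limma). Eif4ebp1, which encodes the translation repressor 4E-BP1, had 2.44, 2.55 and 2.19 in bone marrow, 3.40, 3.29 and 3.37 in blood and 1.80, 1.59 and 1.36 in tumor. It was lowest in tumor, 3.42-fold below blood and 1.75-fold below bone marrow (adjusted p = 2.69e-05 and 0.00186). Platelet markers, for which the gate names no antibody, summed to 471 to 639 RPM in blood and to at most 12 elsewhere. Monocyte and macrophage markers were also highest in blood, at 1296 to 1508 RPM against 491 to 538 in bone marrow and 518 to 705 in tumor, as were red cell markers, at 245 to 471 RPM against 26.8 to 56.7 and 12.9 to 139. The part of these cells in the blood values was not tested.

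ATF4 with a C/EBP partner binds TGATGNAA, the letters searched here as the C/EBP-ATF response element. They were found in 4 of 14 ISR genes matched, Trib3, Chac1, Asns and Vldlr, and in Herpud1, beside 4.51% of all genes. Asns and Chac1 are shown because they moved in opposite directions from bone marrow to blood, with the element in capitals, which reads on the opposite strand in Chac1.
Asns, chr6:7693214-7693243 (- strand): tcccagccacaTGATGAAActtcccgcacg
Chac1, chr2:119351038-119351067 (+ strand): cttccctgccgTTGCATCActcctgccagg
It began 23 bases before the RefSeq start of Asns, inside the gene as annotated in GENCODE M21, and 193 bases before that of Chac1. A match of letters is a description of these windows.

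Levels of different genes can be compared only per length. Scaled to the length of all annotated exons and the authors' library size, the highest of the 40 genes in bone marrow were P4hb (143 ± 16.4 RPM for each kilobase of exon, SD, n = 3), Pdia3 (123 ± 13.0) and Hspa5 (118 ± 17.6). Their spreads across libraries overlapped, but P4hb was above Pdia3 and Hspa5 within every bone marrow library. In blood Xbp1 led with 334 ± 94.2, followed by Hspa5 at 124 ± 5.25 and Herpud1 at 97.1 ± 13.7. In tumor P4hb was at 426 ± 47.4, Xbp1 at 382 ± 68.2, Ppp1r15a at 332 ± 77.9 and Hspa5 at 293 ± 35.1, each within the spread of its neighbour. Within every tumor library P4hb was above Xbp1 and Xbp1 above Ppp1r15a, while Ppp1r15a and Hspa5 changed order between libraries. Ppp1r15a was thus at rank 3 of the 40 genes in tumor, at rank 13 in blood and at rank 28 in bone marrow, while Ppp1r15b was at 18, 8 and 5. Whether reads in introns were counted is not given in the sources used here, and such reads would raise the level of a gene with long introns.

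**Figure D5:**
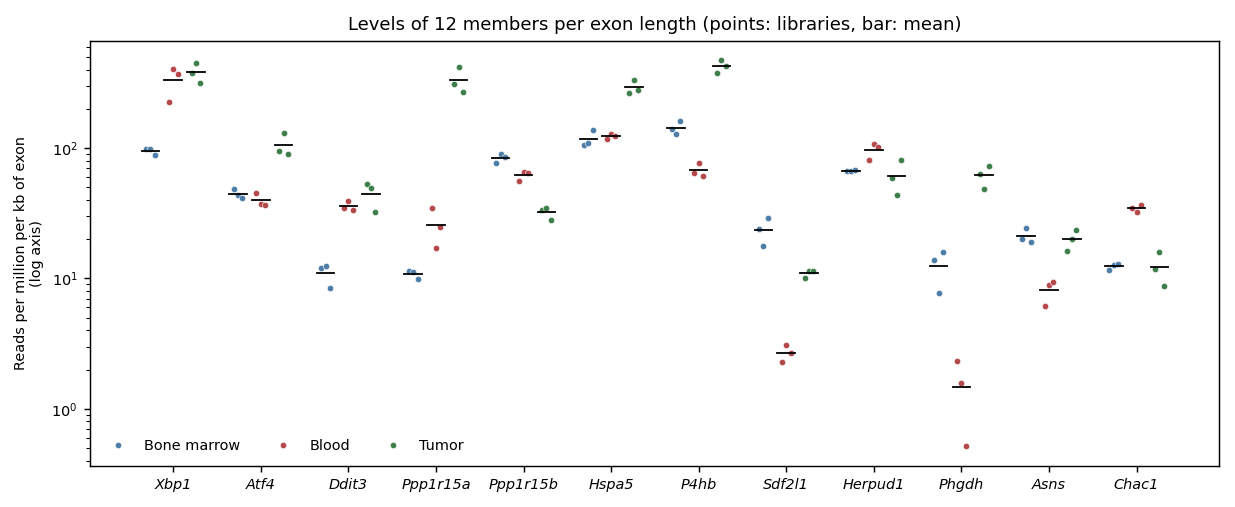
Levels of 12 genes in RPM for each kilobase of exon (log axis), 1 point per library with a bar at the mean of each compartment. Xbp1 is at 334 in blood and 382 in tumor, Ppp1r15a lies below Ppp1r15b in bone marrow and blood and above it in tumor, and Phgdh is lowest in blood at 1.48.

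Other genes of these pathways were read from lists fixed by name. Of 33 further ISR genes 22 were tested. Wars, Impact and Cars were over 0 in fewer than 3 libraries outside tumor, so they passed the filter only with their tumor libraries counted. They remain in the counts and medians below, where Wars and Impact are among the higher genes of both tumor comparisons and Cars is not called. The counts of higher genes thus include genes that were tested only because of their tumor values. Nupr1 was over 0 in tumor libraries only. Of the other 21, 17 were higher and 0 lower in tumor than in blood (28.1% and 34.5% of all genes), with a median of 1.46 beside -0.17, and 14 were higher and 1 lower (Eif2ak2, the kinase PKR) than in bone marrow (22.4% and 32.9%), with a median of 0.80 beside -0.21. In blood against bone marrow 2 were higher and 6 lower (20.6% and 23.6%). Those with at least 2 log2 units in both tumor comparisons were Atf3, Ddit4, Nupr1, Slc3a2 and Wars. Atf3, a stress-induced factor, had 53, 17 and 10 in bone marrow, 290, 318 and 235 in blood and 2282, 3719 and 2965 in tumor reads, and rose in tumor against bone marrow (log2 fold change 6.93 ± 0.54 (SE), adjusted p = 2.68e-05) and blood (log2 fold change 2.78 ± 0.54 (SE), adjusted p = 0.00249), and also in blood against bone marrow (log2 fold change 4.15 ± 0.54 (SE), adjusted p = 0.00067). Nupr1, a stress-induced chromatin protein, had 17, 8 and 13 in bone marrow, 13, 22 and 19 in blood and 333, 377 and 512 in tumor reads, and no test is given for it because its log2 FPKM was over 0 in tumor only. Ddit4, the mTORC1 inhibitor REDD1, rose by 3.16 and 2.92, and Slc3a2, the heavy chain of amino acid transporters, by 2.07 and 2.48 (log2, against blood and against bone marrow, adjusted p at most 0.000389). Wars, the tryptophanyl-tRNA synthetase, had 213, 223 and 263 in bone marrow, 112, 120 and 107 in blood and 1064, 843 and 1376 in tumor reads. Its differences were 2.63 from blood and 2.02 from bone marrow, with no test given because it passed the filter only with tumor counted.

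Of 40 further UPR genes 27 were tested, of which 12 were higher and 6 lower in tumor than in blood (44.4% and 22.2%, beside 28.1% and 34.5% of all genes), with a median of 0.42. Against bone marrow 7 were higher, a share of 25.9% that lies near the 22.4% of all genes, and 6 were lower (22.2% beside 32.9%), with a median of 0.11. In blood 3 were higher and 11 lower than in bone marrow (11.1% and 40.7%, beside 20.6% and 23.6%). Txndc5, counted as higher in both tumor comparisons, was over 0 in fewer than 3 libraries outside tumor. It passed the filter only with its tumor libraries counted, so the shares of 44.4% and 25.9% include a gene tested only because of its tumor values. Ero1l, the oxidase that recharges PDI, had 2.27, 2.72 and 2.57 in bone marrow, -0.11, 0.92 and 0.84 in blood and 4.61, 5.28 and 4.30 in tumor with rises of 4.18 ± 0.34 over blood and 2.21 ± 0.34 over bone marrow (SE, adjusted p = 2.75e-05 and 0.000882). Calu, the calcium-binding protein calumenin, had 0.98, 1.18 and 1.53 in bone marrow, -0.36, -0.41 and -0.69 in blood and 3.52, 3.43 and 3.70 in tumor and rose by 4.04 ± 0.18 and 2.32 ± 0.18 (SE, adjusted p = 2.65e-06 and 2.38e-05). The lower genes in both tumor comparisons included Os9, a lectin of ER-associated degradation, and Atf6b, the paralog of Atf6. With plain library totals 18 were higher and 4 lower against blood and 14 and 2 against bone marrow. Over all 7794 genes the counts were then 2892 and 1916 against blood and 2580 and 1654 against bone marrow.

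Reads of overlapping genes could not be told apart without strand, which the sources used here do not give. Exons of 14 of the 40 genes overlap those of another gene in GENCODE M21, among them Ddit3 with Mars, which had 3388 reads in all libraries together, Derl2 with Mis12 (2139 reads), Syvn1 with Mrpl49 (989 reads), Manf with Rbm15b (514 reads), Eif2ak1 with Aimp2 (383 reads) and Ppp1r15a with Tulp2 (240 reads).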

How the data were processed

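RNA sequencing of neutrophils from 3 compartments of OT mice gave 9 SMARTSeq v2 libraries. Per the submitters' processing notes, the authors mapped reads with STAR 2.5.2b to GRCm38, counted them with featureCounts 1.5.0 and used edgeR 3.8.6. They deposited log2 FPKM values of 46517 genes. Whole reads were recovered from these values for 46517 genes (tolerance 1e-05 reads), with a constant of 0.25 reads, and the length equalled the genomic span for 84.5% of the 46005 genes found in GENCODE M21. The main test was limma (3.58.1, R 4.3.3) with an eBayes trend and Benjamini-Hochberg adjustment at 0.05, for the 7794 genes with values over 0 in 3 or more libraries. limma-voom was run on recovered reads of the 17714 genes that reached 5 reads in any library. No further pseudocount was added. Both steps were tested on simulated data.

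Alternatives covered filters, pseudocounts, scaling, variance models, the replicate block and each library left out. The members and lists were chosen with earlier results of these data known. Values in every library are given for Atf4, Ddit3, Xbp1, Hspa5, the UPR sensors, genes called in the same direction in both tumor comparisons and genes that failed the filter. The others are given by range or single differences. Of the further pathway genes, those with 2 log2 units in both tumor comparisons are named. Reads were not corrected for PCR duplicates. The alleles of the tumor line are not reported here.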

Additional observations from a re-analysis of the deposited data

How the results depend on the processing

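Of the 71 calls among the 33 genes tested, 58 were tested under all 23 alternatives, of which 9 left out a library, and 40 of them were kept in all. The other 13 fell out of the test at a log2 FPKM over 2, and 8 of them were kept under the other 22. The 10 genes lower in tumor than in blood became 6 with plain library totals and 4 when a log2 difference of 1 in either direction was also required. Over all 7794 genes the 2686 lower became 1916 and 1897 in these settings. The 8 lower than in bone marrow became 5 with no filter, with a filter on reads or without the intensity trend, 4 with plain library totals or a log2 FPKM over 2, and 3 with the fold threshold, and ranged from 5 to 7 with a library left out. The other 4 counts stayed within 1.5 times. Signs turned with plain library totals, in tumor against blood for Edem1 (0.13) and Derl2 (0.13) and in tumor against bone marrow for Cebpg (0.40), Chac1 (0.38), Asns (0.35), Dnajc3 (0.15), Herpud1 (0.28), Syvn1 (0.34), Derl1 (0.098) and Derl2 (0.17). With quantile normalization they turned for Chac1 (0.052), Herpud1 (0.082) and Syvn1 (0.033) in tumor against bone marrow and for Hspa5 (-0.13) in blood against bone marrow. Of these, the main value had passed the threshold for Derl1 and Derl2 only. With a library left out the log2 fold change of tumor against bone marrow ranged from -0.23 to 0.039 for Asns, -0.20 to 0.059 for Cebpg, -0.29 to 0.15 for Chac1, -0.40 to 0.052 for Herpud1, -0.015 to 0.34 for Sesn2 and -0.18 to 0.012 for Syvn1. Against blood it ranged from -0.010 to 0.58 for Dnajb11 and -0.033 to 0.39 for Xbp1, and in blood against bone marrow from -0.025 to 0.075 for Derl2 and -0.058 to 0.62 for Trib3. A pseudocount of 1 FPKM moved 12 of the called fold changes by more than 1.5 times, those of Phgdh, Trib3, Eif2ak1, Hyou1, Pdia4 and Sdf2l1, and ended 0 of these calls. The cause was not tested.

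The paper describes the compartments as drawn from the same mice, but no label ties a replicate number to an experiment, and the main model used no pairing. The correlation of same-numbered libraries' deviations was over 0.1 in 1 of 9 pairs (-0.071 to 0.108). With 3 libraries per compartment this cannot exclude pairing. With the replicate block 17 genes were higher and 10 lower in tumor than in blood, 15 higher and 6 lower than in bone marrow, and 7 higher and 14 lower in blood than in bone marrow. In tumor against bone marrow the block ended the calls of Creld2 (adjusted p = 0.062), Sel1l (0.0854) and Derl2 (0.0533) and added Hyou1 (0.0384), and it changed no other call. Reads were fewest for Vldlr, with 0 to 4 in bone marrow and 0 to 1 in blood, and for Psat1 and Phgdh in blood, with 1 to 18 and 6 to 23, and 3 libraries per compartment limit every test.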
